A study of Homo sapiens with 6 samples.

Results

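The transcripts examined here encode receptors through which cells hold, sense or take up collagen: ITGA1, ITGA2, ITGA10, ITGA11, ITGB1, DDR1, DDR2 and MRC2. They were chosen by gene name, as the collagen-binding integrin chains, the discoidin domain receptors and the endocytic collagen receptor. The rule uses no measured value, although it was set with earlier results of these data known. They make up 8 of the 23754 features in the table, and all 8 passed the filter on low counts. RNA was sequenced from IMR-90, an established line of human fetal lung fibroblasts, in 3 libraries with induced ZNF469 knockdown and 3 without. All 6 libraries came from cells carrying the Tet-pLKO-puro vector with the sh-2 hairpin against ZNF469, which had been selected with puromycin and were kept in it. The DOX- group received no doxycycline, and in the DOX+ group the hairpin was switched on by doxycycline at 2 µg/mL over 4 days. The submitted genotype label of the DOX- samples reads Wild-type, whereas the paper describes the uninduced hairpin line, and the latter was followed. No library had doxycycline without the hairpin, so in these libraries the actions of the drug and of the hairpin cannot be told apart. In separate control experiments, the paper reports that collagen production was unaltered by transduction or by doxycycline on its own. The submitters describe the replicates as technical. The p-values therefore measure only the differences among these libraries, and separate cultures may vary more.

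Integrins are heterodimers of an alpha and a beta chain. The alpha chains encoded by ITGA1, ITGA2, ITGA10 and ITGA11 each carry an inserted domain that binds triple-helical collagen, and each pairs with the beta1 chain encoded by ITGB1, which links the complex through adaptor proteins to actin. ITGA2 with ITGB1 favours fibrillar collagens such as collagen I, ITGA1 with ITGB1 favours the network-forming collagen IV of basement membranes, and ITGA11 with ITGB1 is typical of fibroblasts. DDR1 and DDR2 are receptor tyrosine kinases that are activated slowly by native collagen, DDR1 mostly in epithelial cells and DDR2 mostly in mesenchymal cells. MRC2, also called Endo180 or uPARAP, carries collagen fragments into lysosomes for degradation. Fibroblasts use these receptors to attach to, pull on and remodel the matrix that they secrete.

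Total counts ran from 34057675 to 36120260 per library. Levels are given in CPM, the count scaled to library size after TMM normalization, for comparisons between groups, and in the deposited FPKM, which divides by transcript length, for comparisons between genes. ZNF469 itself fell from 119 ± 7.25 CPM (SD, n = 3) in DOX- to 80.1 ± 0.488 CPM (SD, n = 3) in DOX+, so that 67.5% of its transcript remained (log2 fold change −0.57, standard error 0.0477, adjusted p = 3.31e-05, edgeR's quasi-likelihood test). The fibroblast markers were present in every library, with a summed level of 21022 to 21336 CPM in DOX- and 17639 to 18067 CPM in DOX+. Of the 8 fibroblast markers, 3 were lower in DOX+ by the same test, namely COL1A2 (log2 fold change −0.50), DCN (−0.18) and LUM (−0.22). COL1A2, itself a collagen gene, went from 10083 to 7107 CPM and so made up most of the lower sum. The other markers were not called, with VIM at −0.020, PDGFRB at −0.016, PDGFRA at −0.0030, THY1 at 0.037 and FAP at 0.042. COL1A2 alone was called without DOX- replicate 1 or on the deposited FPKM, and LUM, whose adjusted p was 0.0499 (edgeR), lost its call under 10 of the 15 alternatives. The 7 epithelial markers summed to 0.201 to 0.796 CPM in DOX- and 0.480 to 0.869 CPM in DOX+, with KRT5, SFTPC, SFTPB and NKX2-1 at 0 in every library. The endothelial genes PECAM1 and CDH5 were also at 0 in every library, and of the 6 endothelial markers TEK alone passed 1 CPM, at 20.9 ± 2.31 CPM (SD, n = 3) in DOX-. The leukocyte genes CD3E and LYZ were at 0, and CD68, which is not limited to leukocytes, stood at 64.3 ± 3.39 CPM (SD, n = 3) in DOX-. The summed ranges of the endothelial list were 20.1 to 24.4 CPM in DOX- and 20.6 to 24.0 CPM in DOX+. The 6 smooth muscle and pericyte markers summed to 1724 to 1811 CPM in DOX- and 1778 to 1919 CPM in DOX+, and 0 of them passed the test, with 2 of them nearest to it, CSPG4 (−0.19, adjusted p = 0.0734) and ACTA2 (0.12, adjusted p = 0.0774), which both passed it with DESeq2, with the replicate number as a block and with the length trend removed. ACTA2 also passed it as higher under library size scaling and without DOX+ replicate 2, and CSPG4 as lower without the filter on low counts. By RT-qPCR the paper reports a decrease of ACTA2 after the knockdown, and the reason for the difference was not tested. The part of the fibroblast markers in the results that follow was not tested. In bulk RNA, fewer cells of a kind and less RNA per cell cannot be told apart.

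The collagen receptor transcripts spanned a wide range of levels. In DOX- cells ITGB1 stood first at 1159 ± 54.1 FPKM (SD, n = 3). Its mean FPKM over all 6 libraries was above that of 99.8% of the features tested. MRC2 followed at 61.9 ± 1.32 FPKM, and then DDR2 at 24.7 ± 1.41 FPKM. ITGA1 was at 22.2 ± 1.05 FPKM, ITGA2 at 17.1 ± 0.151 FPKM and DDR1 at 14.3 ± 0.246 FPKM (SD, n = 3 each). The remaining alpha chains were scarce, with ITGA11 at 1.05 ± 0.0661 FPKM and ITGA10 at 0.786 ± 0.0650 FPKM. By its mean over all 6 libraries, ITGA10 was above 18.8% of the features tested. In DOX- cells no neighbours in this order overlapped over the 3 libraries. In DOX+ cells the ranges of DDR2 and ITGA1 overlapped, as did those of ITGA2 and DDR1 and those of ITGA11 and ITGA10, so these pairs did not differ beyond their spread. ITGA2 and DDR1 also stood in the other order in DOX+, at 13.8 ± 0.887 FPKM and 14.4 ± 0.623 FPKM (SD, n = 3 each).

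**Figure D1:**
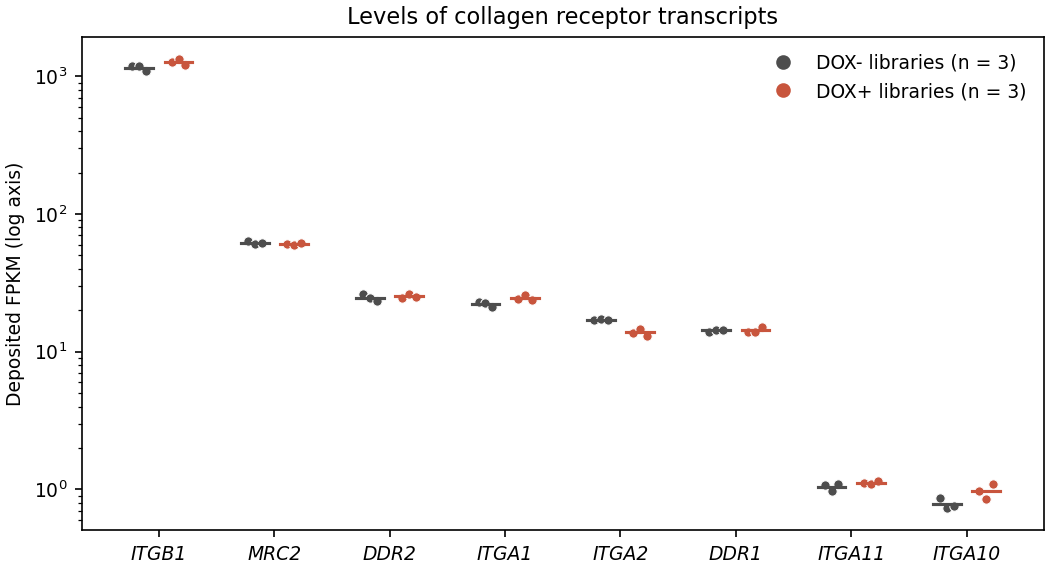
Deposited FPKM of each collagen receptor gene on a log axis, with 1 point per library and a line at the mean of the 3 libraries of a group. ITGB1 lies far above the other genes at 1159 FPKM in DOX-, and ITGA11 and ITGA10 lie near 1 FPKM.

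Of the 8 collagen receptor genes, 1 changed at an adjusted p under 0.05, and that gene, ITGA2, was lower in DOX+. For comparison, the same rule called 1.12% of the 13991 features tested (156 features), 0.715% as lower and 0.400% as higher. No collagen receptor gene was called higher. The study's criterion also asks for an absolute log2 fold change over 1. In the edgeR fit used here, 0 of the 8 genes and 0.0429% of all features passed it. The paper, which names no test, reports many more genes under that criterion, and the reason for the difference was not tested. At an unadjusted p under 0.05 there were 3 of the 8 (ITGA1, ITGA2 and ITGB1), against 15.0% of all features. The CPM of the groups did not overlap for 3 of the 8 (ITGA1, ITGA2 and MRC2), against 20.3% of all features. The log2 fold change was above 0 for 3 and below 0 for 5 of the genes. Its median was −0.024, beside −0.0019 over all features tested, and the median of its absolute value was 0.0912, beside 0.0847 over all features. The middle size of the changes was thus close to that of all features tested, which were not matched to the receptors in level.

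**Figure D2:**
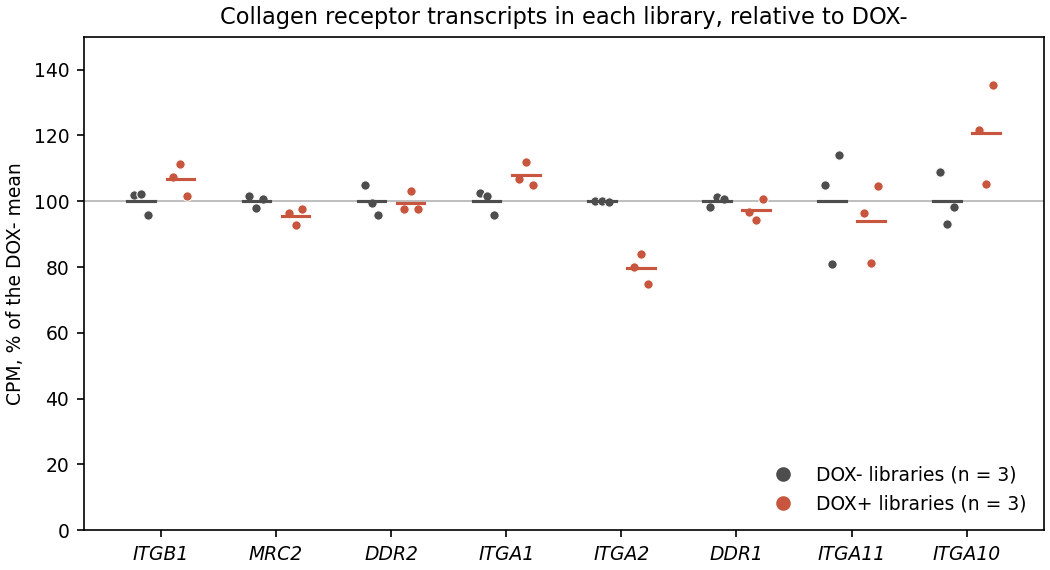
CPM of each collagen receptor gene as a percentage of its DOX- mean, with 1 point per library and a line at each group mean (n = 3). The 3 DOX+ libraries of ITGA2 lie below all DOX- libraries, with a mean at 79.6% of DOX-, whereas ITGA10 and ITGA11, the scarce chains, scatter most.

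ITGA2 (ENSG00000164171) encodes the alpha chain of the integrin also known as VLA-2, a receptor for fibrillar collagen. It lies on the forward strand at chr5:52989340-53094779 (GRCh38), with 30 exons in its canonical transcript. Its level was 148, 148 and 147 CPM in the 3 DOX- libraries and 118, 124 and 111 CPM in the 3 DOX+ libraries, from 5021, 5214 and 5141 counts and 4226, 4400 and 4004 counts. The DOX- libraries were nearly equal, all 3 DOX+ libraries were lower, and the groups did not overlap. ITGA2 therefore fell to 79.6% of its DOX- level, a log2 fold change of −0.33 (standard error 0.0451, 95% interval −0.43 to −0.23, adjusted p = 0.00269, edgeR's quasi-likelihood test). The exact two-sided permutation test gave p = 0.1, the smallest that 3 libraries against 3 allow. Among the 100 features called lower, ITGA2 ranked 28th by p-value and 41st by size. The call held without any 1 library, with log2 fold changes from −0.37 to −0.29 and adjusted p from 9.48e-04 to 0.0246. On the deposited FPKM, a comparison added after the data were seen, ITGA2 was also lower (−0.31) but was not called (adjusted p = 0.107, limma), where 30 features of the whole table were.

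ITGA1 (ENSG00000213949), the alpha chain of the receptor that favours collagen IV, is the neighbour of ITGA2, at chr5:52787916-52959209 on the same strand, and ends 30.1 kb before ITGA2 starts. Its level was 272, 270 and 254 CPM in DOX- and 283, 297 and 278 CPM in DOX+. All 3 DOX+ libraries stood above all DOX- libraries, although by little. The log2 fold change was 0.11 (standard error 0.0394, 95% interval 0.024 to 0.19) and missed the threshold (adjusted p = 0.214, edgeR). PELO, a ribosome rescue factor, starts at the same base and is nested in ITGA1 on the same strand, so reads in its span could have been assigned to either gene. PELO had 4228 to 4749 counts per library and a log2 fold change of 0.045 (standard error 0.0403, adjusted p = 0.651, edgeR). Antisense transcripts are annotated across both integrin genes, and whether counting used strand is not given in the sources used here.

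The adjacent alpha chain genes and their shared beta chain gene are transcribed next to each other or act together. Their log2 fold changes differed, and of these only that of ITGA2 passed the test. The sequences around their starts are shown for this reason. Each is a RefSeq window of GRCh38.p14 running from 250 bases before to 50 bases after an annotated start, printed 5′ to 3′ on the gene's own strand, with GC boxes (GGGCGG on either strand, a site of SP1 family factors) in capitals. The windows are chr5:52989102-52989401 (forward strand) for ITGA2, chr5:52787666-52787965 (forward strand, also upstream of PELO) for ITGA1, and chr10:32958181-32958480 (reverse strand), 1 of 2 windows of ITGB1.
ITGA2: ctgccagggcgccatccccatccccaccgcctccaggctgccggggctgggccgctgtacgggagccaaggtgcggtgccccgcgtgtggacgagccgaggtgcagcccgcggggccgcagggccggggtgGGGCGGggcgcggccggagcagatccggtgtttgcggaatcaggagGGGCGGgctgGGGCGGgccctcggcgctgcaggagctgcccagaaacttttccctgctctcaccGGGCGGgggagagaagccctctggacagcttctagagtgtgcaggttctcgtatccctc
ITGA1: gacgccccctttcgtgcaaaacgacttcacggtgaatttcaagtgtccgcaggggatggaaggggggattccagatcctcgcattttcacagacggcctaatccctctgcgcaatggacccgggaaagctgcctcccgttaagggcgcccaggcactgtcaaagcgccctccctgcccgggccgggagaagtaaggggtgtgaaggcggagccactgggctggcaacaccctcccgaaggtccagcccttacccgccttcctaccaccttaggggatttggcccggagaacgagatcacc
ITGB1: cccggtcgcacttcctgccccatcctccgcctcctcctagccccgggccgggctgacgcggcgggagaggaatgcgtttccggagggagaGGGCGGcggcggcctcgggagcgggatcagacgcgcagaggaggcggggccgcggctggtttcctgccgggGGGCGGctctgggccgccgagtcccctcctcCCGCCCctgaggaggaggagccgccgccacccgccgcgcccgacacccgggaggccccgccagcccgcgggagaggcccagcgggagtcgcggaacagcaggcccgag
The ITGA2 window held 4 GC boxes and 72.7% G and C, the ITGB1 window held 3 with 78.3%, and the ITGA1 window held 0 with 61.7%. GC boxes were present in 44.9% of all 35097 windows of this length, whose median content of G and C was 58.7%. The TATA box (TATAAA, in 11.5% of all windows), the letters CAGACA of SMAD-binding elements (16.9%) and the CCAAT box (CCAAT, 34.6%), searched on both strands, had 0 matches in these 3 windows. The other ITGB1 window, not printed here, held 0 GC boxes, 3 TATA boxes, 0 matches to CAGACA, 2 CCAAT boxes and 40.7% G and C. Of the 8 genes, 7 had at least 1 window in RefSeq's table, and MRC2 had none there. A match is a string of letters and not a binding site, and a link between the letters and the log2 fold changes was not tested.

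The change of ITGA2 was compared with that of the genes around it. Within 1000 kb on either side of its start, the table held 6 tested genes, ITGA2 included. ITGA1 and PELO, 201 kb before it, had the log2 fold changes given above. MOCS2, a gene of molybdenum cofactor synthesis 121 kb after it, had a log2 fold change of 0.019 (adjusted p = 0.901), and NDUFS4, a subunit of respiratory complex I 571 kb after it, had 0.013 (adjusted p = 0.940, edgeR). FST, which encodes the activin inhibitor follistatin and starts 491 kb after ITGA2, fell from 1195 ± 17.3 to 1060 ± 6.40 CPM (SD, n = 3 each), a log2 fold change of −0.17 (standard error 0.0242, adjusted p = 0.00327, edgeR). FST was named for its position after its value had been seen.

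**Figure D3:**
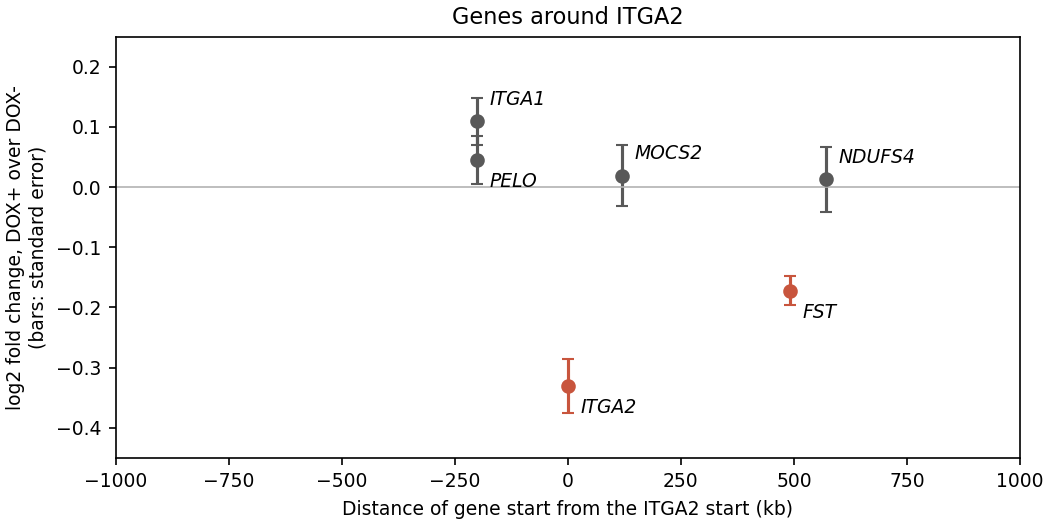
Log2 fold change (DOX+ over DOX-) of the 6 tested genes within 1000 kb of the start of ITGA2 against the distance of their own start in kb, with bars of 1 standard error. ITGA2 (−0.33) and FST (−0.17), in red, passed the test, and the 4 genes in grey did not.

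ITGA10 (ENSG00000143127, chr1:145891208-145910111, reverse strand), whose integrin is known from cartilage, had 151 to 170 counts per DOX- library and 172 to 226 per DOX+ library. Its level was 4.61 ± 0.371 CPM in DOX- and 5.57 ± 0.695 CPM in DOX+ (SD, n = 3 each), with overlapping groups. The log2 fold change was 0.27 (standard error 0.141, 95% interval −0.033 to 0.57, adjusted p = 0.392, edgeR), the second largest in size among these receptors and one of the 2 least precise. ITGA11 (ENSG00000137809, chr15:68296532-68432163, reverse strand), the collagen I receptor chain of fibroblasts, was at 8.94 ± 1.54 CPM in DOX- and 8.41 ± 1.07 CPM in DOX+ (SD, n = 3 each). Its log2 fold change was −0.088 (standard error 0.142, 95% interval −0.40 to 0.22, adjusted p = 0.818, edgeR), and on the deposited FPKM it had the other sign, 0.086. Counts divided by FPKM and depth gave ITGA11 an effective length of 6.74 to 9.24 kb over the libraries, a coefficient of variation of 11.1%, above that of 91.8% of the features tested, whose median was 1.81%. The counts and the FPKM of ITGA11 thus did not follow each other from library to library, and neither scale detected a change.

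The collagen-binding alpha chains were also compared as parts of a whole. Of the summed FPKM of the 4 chains, ITGA2 made up 41.6 ± 0.941% in DOX- and 34.1 ± 0.820% in DOX+ (SD, n = 3 each). ITGA1 made up 53.9 ± 1.05% and 60.7 ± 0.388%. ITGA11 held 2.55 ± 0.208% and 2.76 ± 0.189%, and ITGA10 held 1.91 ± 0.142% and 2.41 ± 0.389%. The sum itself was 41.1 ± 1.15 FPKM in DOX- and 40.4 ± 1.77 FPKM in DOX+, with overlapping ranges. In both groups ITGA1 and ITGA2 thus made up nearly all of the collagen-binding alpha chain transcript, and the balance between them differed. The ratio of ITGA2 to ITGA1 counts, a comparison added after the values of ITGA2 were seen, was 0.558 in DOX- and 0.411 in DOX+, a log2 difference of −0.44 that does not depend on scaling between libraries (exact two-sided permutation p = 0.1, the smallest possible). Without any 1 library the difference stayed between −0.46 and −0.41. The ratio of ITGA11 to ITGA1 differed by −0.19 on the log2 scale (exact two-sided permutation p = 0.4). It was −0.052 on FPKM, −0.35 without DOX- replicate 2, −0.29 without DOX+ replicate 3, −0.057 without DOX- replicate 3 and −0.061 without DOX+ replicate 2.

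ITGB1 (ENSG00000150093, chr10:32887273-33005792, reverse strand, 16 exons in its canonical transcript) encodes the beta1 chain that all 4 alpha chains need to reach the cell surface. Its level was 4729, 4742 and 4442 CPM in DOX- and 4980, 5156 and 4714 CPM in DOX+. The lowest DOX+ library stood below the highest DOX- libraries, so the groups overlapped. The log2 fold change was 0.094 (standard error 0.0312, 95% interval 0.026 to 0.16) and missed the threshold (adjusted p = 0.181, edgeR). ITGB1 exceeded the summed collagen-binding alpha chains 28.2 ± 0.546-fold by FPKM in DOX- and 31.3 ± 0.428-fold in DOX+ (SD, n = 3 each), without overlap. The log2 ratio of the summed alpha chains to ITGB1 was lower in DOX+ by −0.15 (exact two-sided permutation p = 0.1, the smallest possible). ITGA2 relative to ITGB1, added after the values were seen, differed by −0.43 (exact two-sided permutation p = 0.1). Most of the beta1 partners lay elsewhere: over the 12 alpha chains that can pair with ITGB1, the collagen-binding chains made up 11.5 ± 0.382% of the FPKM in DOX- and 10.9 ± 0.442% in DOX+, and ITGB1 exceeded the sum of all 12 by 3.23 ± 0.169-fold and 3.41 ± 0.166-fold.

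**Figure D4:**
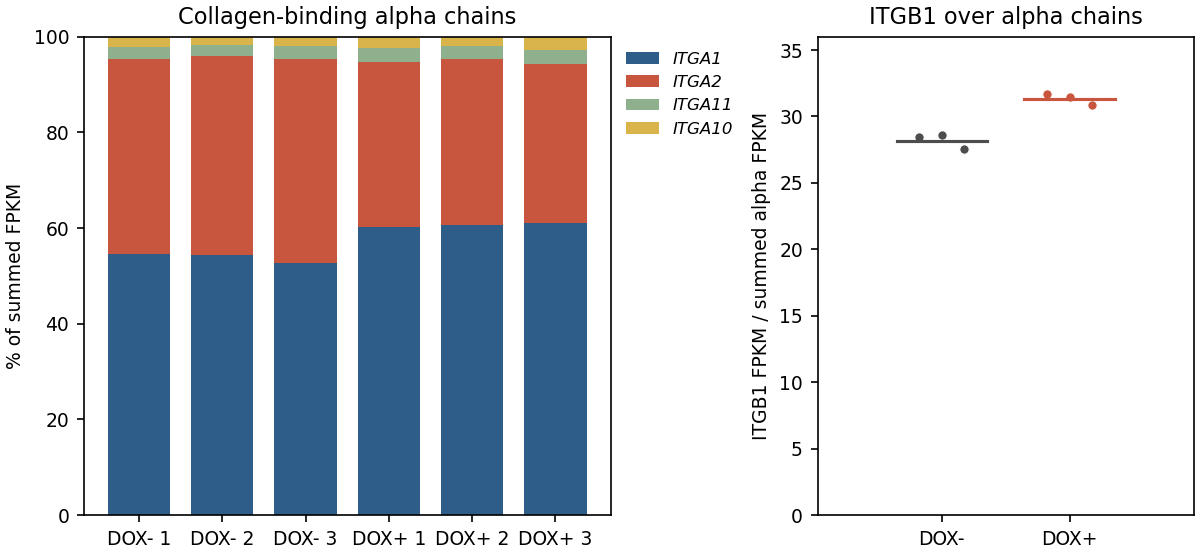
Left, share of each collagen-binding alpha chain in their summed FPKM in each library (stacked bars, %); right, ITGB1 FPKM over the summed FPKM of these chains, with 1 point per library and a line at the group mean. The share of ITGA2 was 40.7% to 42.6% in DOX- and 33.2% to 34.7% in DOX+.

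The discoidin domain receptors did not change detectably. DDR1 (ENSG00000204580, chr6:30876421-30900156, forward strand) was at 60.3 ± 0.979 CPM in DOX- and 58.6 ± 1.95 CPM in DOX+ (SD, n = 3 each), a log2 fold change of −0.040 with a 95% interval of −0.14 to 0.055 (adjusted p = 0.720, edgeR). DDR2 (ENSG00000162733, chr1:162631373-162787405, forward strand) was at 273 ± 12.3 CPM and 272 ± 8.44 CPM (SD, n = 3 each), a log2 fold change of −0.0069 with a 95% interval of −0.095 to 0.081 (adjusted p = 0.955, edgeR). The groups overlapped for both genes, and the sign of each turned under at least 1 other treatment of the data, so that neither has a direction. The count ratio of DDR2, the mesenchymal receptor, to DDR1 was 4.53 in DOX- and 4.64 in DOX+ (log2 difference 0.034, exact two-sided permutation p = 0.6). By FPKM, which allows for the longer DDR2 transcript, DDR2 stood at 24.7 and DDR1 at 14.3 in DOX-.

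MRC2 (ENSG00000011028, chr17:62627670-62693597, forward strand), the endocytic receptor, was the most abundant of these genes after ITGB1 by FPKM. On the deposited FPKM its groups overlapped, at 60.8 to 63.4 in DOX- and 59.7 to 61.9 in DOX+. Its level in CPM was 411 ± 8.16 in DOX- and 393 ± 10.6 in DOX+ (SD, n = 3 each), and every DOX+ library was below every DOX- library. The gap was very narrow, with DOX- replicate 2 at 402.2 CPM and DOX+ replicate 3 at 401.9 CPM. The log2 fold change was −0.065 (standard error 0.0333, 95% interval −0.14 to 0.0072) and missed the threshold (adjusted p = 0.388, edgeR).

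**Figure D5:**
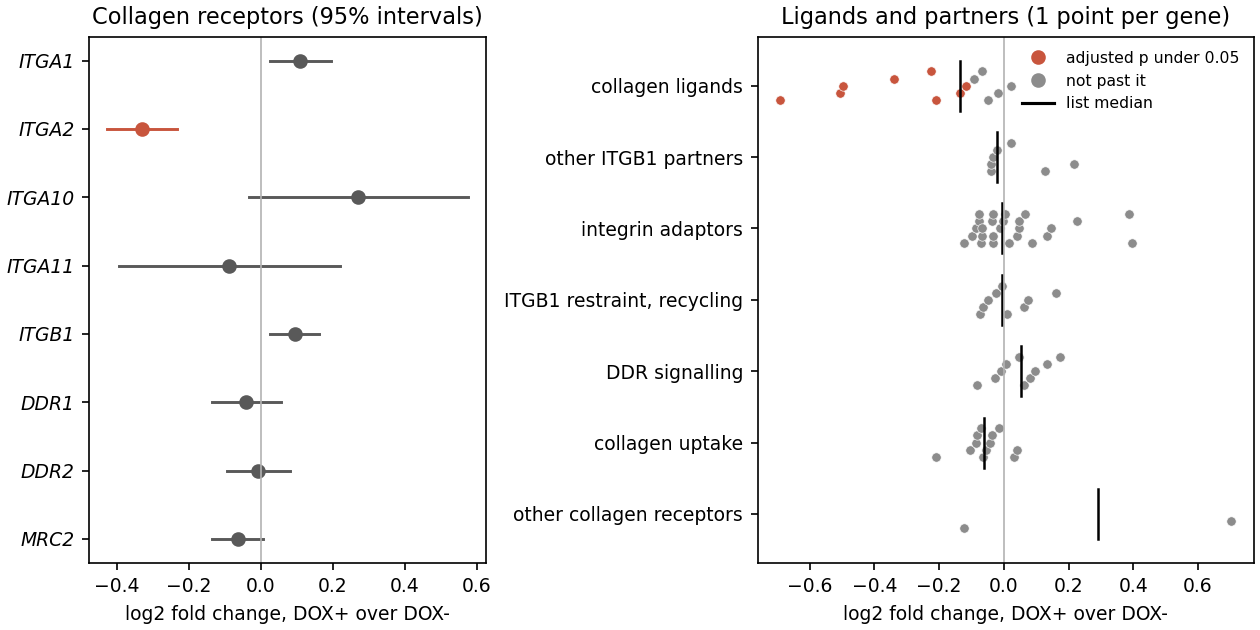
Left, log2 fold change (DOX+ over DOX-) of each collagen receptor gene with its 95% interval. Right, 1 point per tested gene of the ligand and partner lists, with a black line at each list median; red marks an adjusted p under 0.05. ITGA2 (−0.33) is red among the receptors, and 8 of 13 collagen genes are red, all to the left of 0.

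Among the ligands of these receptors, collagen I and several other collagens were lower in DOX+. Of 15 collagen genes whose products the receptors bind or could bind, 13 were tested, 8 were lower at an adjusted p under 0.05 and 0 were higher, with a median log2 fold change of −0.13 beside −0.0019 over all features (0.715% of all features were called lower). ZNF469 depletion is the setting in which the study examined collagen genes, so this count is not independent evidence of their direction. COL1A1 and COL1A2, the chains of collagen I, had log2 fold changes of −0.69 (standard error 0.0217) and −0.50 (0.0168), from 15509 ± 401 to 9610 ± 277 CPM and from 10083 ± 78.3 to 7107 ± 147 CPM (SD, n = 3 each). COL3A1 of the fibrillar collagen III fell by 0.50 on the log2 scale, and COL5A2, a chain of collagen V that regulates fibril diameter, fell by 0.34. COL16A1, a collagen with interrupted triple helices, fell by 0.23, COL6A1 by 0.21, COL4A1 by 0.13 and COL6A3 by 0.12 on the log2 scale. COL4A2, COL5A1, COL6A2, COL8A1 and COL13A1 were not called, and COL13A1 had a log2 fold change above 0 (0.022). Without DOX- replicate 1, or without DOX+ replicate 1, 5 of the collagen genes were called lower (COL1A1, COL1A2, COL3A1, COL5A2 and COL6A1), and on the deposited FPKM 3 were (COL1A1, COL1A2 and COL3A1). ITGA2 (−0.33) thus moved in the same direction as the collagen I chains and by less. The log2 fold changes of the other receptors, of which none was called, lay between −0.088 and 0.27. Those of ITGA11, MRC2, DDR1 and DDR2 were also below 0.

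Transcripts of proteins that work with the receptors gave 0 calls in the main comparison. Of the 8 alpha chains that pair with ITGB1 to bind fibronectin, laminin or other ligands, 7 were tested and 0 were called, with a median log2 fold change of −0.021. The largest was ITGAV, a partner of several beta chains in receptors that activate latent TGF-β, at 0.22 (243 ± 10.3 CPM in DOX- and 283 ± 19.5 CPM in DOX+, SD, n = 3 each, adjusted p = 0.0587, edgeR), followed by ITGA4 at 0.13. Of 26 adaptors that join integrins to actin or to signalling kinases, 0 were called and the median was −0.0057, with 2 genes nearest to the threshold, TNS1 (tensin 1, 0.15, adjusted p = 0.0774) and PARVA (alpha-parvin, 0.087, adjusted p = 0.215). ITGAV and TNS1 passed it as higher under library size scaling, with DESeq2, without the filter on low counts and with the replicate number as a block, and ITGAV also without DOX+ replicate 3. Of 9 genes that restrain or recycle beta1 integrins, 0 were called (median −0.0066), with KRIT1 at 0.16 and RAB11A, of the recycling endosome, at 0.073. Of 10 genes of DDR signalling, 0 were called (median 0.054), with MYH9, the non-muscle myosin heavy chain that binds DDR1, at −0.082 and the phosphatase PTPN11 at 0.080; MYH9 was called lower without DOX- replicate 2. Of 12 genes of collagen uptake and breakdown around MRC2, 0 were called. Their median log2 fold change was −0.060, beside −0.0019 over all features tested, and 10 were below 0. The 2 genes with the smallest p were the urokinase gene PLAU at −0.10 (adjusted p = 0.150, edgeR, called lower with DESeq2) and the gelatinase gene MMP2 at −0.071. Of 7 further collagen-binding or mannose receptor family genes, 2 were tested and 0 were called. These were PLA2R1 at 0.778 ± 0.214 CPM in DOX- and 1.27 ± 0.346 CPM in DOX+ (SD, n = 3 each) and ADGRG1 at 7.02 ± 0.241 and 6.45 ± 1.05 CPM, whereas LAIR1 and LY75 were at 0 in every library.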

How the data were processed

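The authors sequenced poly(A)-selected RNA, aligned the reads with HISAT2 (GRCh38) and used StringTie, per the submitters' processing notes. Versions, annotation release and strand setting are not given in the sources used here. The deposited table holds whole-number counts per gene and library, not normalized, and FPKM (scaled to transcript length and library depth) computed by the authors. Columns of the authors' own comparison were not used.

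Of 23754 features (17 stray lines dropped, 3780 unannotated loci with 0.938% to 0.996% of the counts), 13991 passed filterByExpr (minimum count 10). edgeR 4.0.16 in R 4.3.3 tested DOX+ against DOX- with TMM factors of 0.988 to 1.01, the quasi-likelihood test and Benjamini-Hochberg adjustment over all features tested (threshold 0.05). Each standard error was obtained from the size of the log2 fold change over √F. Permutation tests are exact and two-sided. FPKM served for levels between genes and entered 1 alternative (limma 3.58.1, log2 of FPKM plus 0.1). Positions come from GENCODE v44 (GRCh38) and promoter windows from RefSeq. The scripts were tested on simulated counts.

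The genes and lists were chosen with earlier results of these data known. Named genes are the 8 receptors, ZNF469, all list genes past the threshold and, in lists with none, the 2 with the smallest p; markers below 1 CPM and genes near ITGA2 were named besides. Alternatives were other scalings and filters, DESeq2 1.42.0, limma-voom, a replicate block, a length trend (span 0.3) and leaving out each library. The result of 1 marker gene is not reported here.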

Additional observations from a re-analysis of the deposited data

How the results depend on the processing

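ITGA2 stayed lower under all 15 alternatives and was called under 14 of them; on the deposited FPKM (chosen after seeing the data) its log2 fold change was −0.31 and it was not called, which left 0 collagen receptor genes called there. With the replicate number as a block (replicate block), 2 were called, since ITGB1 (0.094, adjusted p = 0.00770, edgeR) passed as well. Over all features tested, weighed equally, the deviations of same-numbered libraries were barely correlated (−0.0286, −0.0353 and 0.0382). Such correlations can miss a pairing that shows in some genes only, so whether the numbers pair the libraries is not known. Features called over the whole table numbered 156 in the main comparison, 531 with DESeq2, 290 without the filter on low counts, 292 with the replicate block and 30 on FPKM, and 74 (without DOX+ replicate 1) to 161 when 1 library was left out (82, 101 and 89 without DOX- replicates 1, 2 and 3); without 1 library, 1 receptor gene was called each time. The share called higher was 35.9% in the main comparison (56 higher, 100 lower), 53.3% with library size scaling (88 and 77), 50.1% with DESeq2, 46.2% with the block and 20.0% on FPKM. Small log2 fold changes turned sign: DDR2 was 0.014 with library size scaling, 0.033 on FPKM and −0.036 to 0.028 without 1 library; ITGA11 was 0.086 on FPKM and −0.22 to 0.018 without 1 library; DDR1 was 0.0069 on FPKM; and the log2 ratio of DDR2 to DDR1 differed by −0.014 to 0.082 without 1 library. The cause was not tested. ITGA1, ITGA10 and MRC2 kept their direction and were not called under any of the alternatives, and DESeq2 gave no adjusted p for ITGA10 and ITGA11. ITGA10 and ITGA11 had the fewest counts and the widest intervals of the receptors. Leaving out 1 library of 3 changes the number of features that pass the filter.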

Other observations

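The transcripts whose levels followed the leading receptor of each class most closely over the 6 libraries were looked up among 8994 annotated features with a mean of at least 10 CPM, as a description. For ITGA1 these were PJA2, a ubiquitin ligase gene (Pearson r of log2 CPM 0.995), and SMARCA5, a chromatin remodelling ATPase gene (0.993). For ITGB1 they were SEC62, a gene of protein entry into the endoplasmic reticulum (0.995), and PCDHGC3, a protocadherin gene (0.995). For DDR2 they were NADK2 (0.986) and RPRD2 (0.984). For MRC2 they were LTBP2, a matrix protein of elastic fibres (0.998), and RNF26 (0.994). The points share library, depth and treatment, and these are the highest of 8994 values each.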
